A study of Oryctolagus cuniculus with 6 samples.

Results

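The S100 genes were examined in cultured limbal stem cells (LSCs), the stem cells of the corneal epithelium, obtained from rabbit tissue as explant outgrowths, with 3 RNA-seq libraries in the fresh and 3 in the preconditioned group. Members were taken by gene symbol from a list of 10 (S100A2, S100A4, S100A6, S100A8, S100A9, S100A10, S100A11, S100A13, S100A14 and S100A16), and 8 of them had a row in the table of 22190 genes. S100A2 and S100A4 had no row under those symbols, and all 8 present genes passed edgeR's filter on low counts, which kept 15029 genes. Corneal tissue of the preconditioned group was stored frozen in liquid nitrogen for 7 days, with the inflammatory cytokine IL-1β at 10 ng/mL in the freezing medium, and was thawed before explants were plated, whereas the fresh group received neither freezing nor IL-1β. Freezing and IL-1β were given together, so their contributions cannot be told apart. The labels give no strain, age or animal for a library, so the p values below measure only the spread between these libraries.

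S100 proteins are small calcium-binding proteins with a pair of EF-hand motifs that usually act as dimers. Inside the cell they bind partners such as annexins and cytoskeletal proteins, and some of them, the alarmins S100A8 and S100A9 above all, are released on injury and signal through Toll-like receptor 4 and the receptor RAGE. In stratified epithelia several members are abundant in resting cells, and S100A8 and S100A9 are known to be raised in stressed or inflamed epithelium and in myeloid cells.

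The libraries held 31952352 to 34327534 counts on genes. The first principal component of all tested genes held 50.4% of the variance and placed the fresh libraries between −53.1 and −41.1, preconditioned replicate 1 at 8.13 and preconditioned replicates 2 and 3 at 58.3 and 70.4. Counts are given as CPM, the count times 1e6 over the library total times its TMM scaling factor. These factors were lower in the preconditioned group (0.914 to 0.965) than in the fresh group (1.06 to 1.07). With library size alone, the median log2 fold change over the tested genes was −0.16 in place of 0.01, and each S100 value was lower too. The epithelial identity of the cultures was checked first. KRT5, a basal keratin, had 7337 to 11740 CPM in the 6 libraries, and the 7 epithelial markers in the table summed to 9758 to 13488 CPM in the fresh and 9167 to 13502 CPM in the preconditioned group. Most of this sum was KRT5, and KRT14 and KRT12 had no row. Of the other markers on this list, TP63 was lower in every preconditioned library than in any fresh one (log2 fold change −0.77, edgeR adjusted p = 0.059), and EPCAM was higher in each (0.50, edgeR adjusted p = 0.060). The groups overlapped for PAX6 (0.81, edgeR adjusted p = 0.11) and KRT3 (−1.21, edgeR adjusted p = 0.30). They also overlapped for CDH1 (−0.07, edgeR adjusted p = 0.77) and KRT15 (0.18, edgeR adjusted p = 0.92). KRT15 was low, with 0.988 to 9.71 CPM in the 6 libraries, against 239 to 2655 CPM for KRT3.

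Levels of different genes were compared per length, as FPKM. S100A6, also called calcyclin, was the highest S100 gene in every library and stood at place 3 of 22190 genes by mean FPKM, at 7214 ± 1323 FPKM (SD, n = 3) in the fresh and 10618 ± 916 FPKM (SD, n = 3) in the preconditioned group. In the fresh group it was followed by S100A10 (4087 ± 702 FPKM), S100A9 (3008 ± 1518 FPKM), S100A11 (2768 ± 35.4 FPKM) and S100A8 (1489 ± 806 FPKM, SD, n = 3 each). S100A14 (411 ± 65.5 FPKM), S100A16 (272 ± 50.1 FPKM) and S100A13 (43.2 ± 4.26 FPKM, SD, n = 3 each) were lower in all 3 fresh libraries than the genes above them. The ranges of S100A10 and S100A9 overlapped, as did those of S100A9 and S100A11. The place of S100A9 among these 3 genes was thus not resolved in the fresh group, while S100A10 lay above S100A11 in all 3 fresh libraries. In the preconditioned group S100A11 stood above S100A9 in all 3 libraries (3255 ± 216 against 1580 ± 387 FPKM, SD, n = 3 each), and the other places were unchanged. The place of S100A10 rests on the gene length behind its FPKM, which came to 292 bases against 540 to 607 for S100A6, S100A8, S100A9 and S100A11. By CPM, which is not divided by length, S100A10 had 1126 ± 196 in the fresh group, below S100A11 with 1585 ± 12.4 (SD, n = 3 each).

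**Figure D1:**
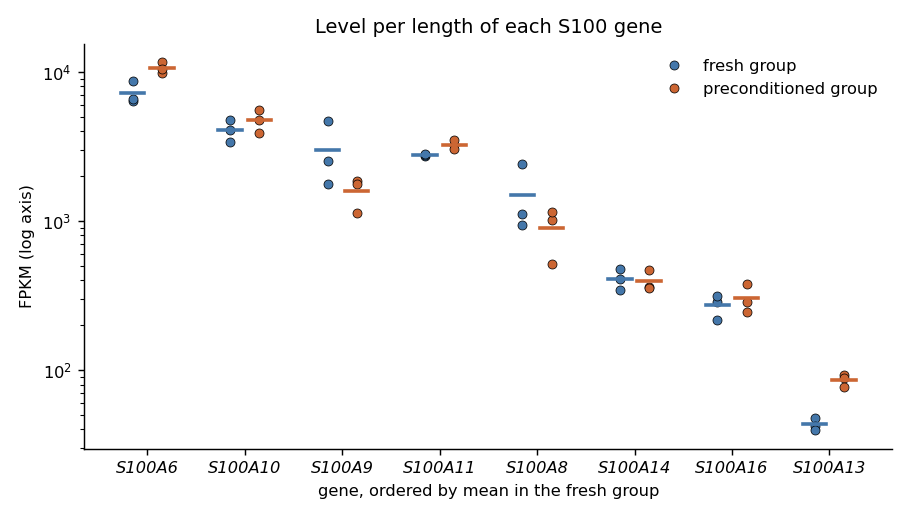
FPKM of the 8 S100 genes on a log axis, with a point for each library and a line at the mean of 3 libraries of the fresh and the preconditioned group. S100A6 lies highest in both groups (7214 and 10618 FPKM on average) and S100A13 lowest (43.2 and 86.4 FPKM), and S100A8 and S100A9 have the widest scatter in the fresh group.

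Together the 8 genes took up 0.904% to 1.09% of all counts in the fresh and 1.09% to 1.27% in the preconditioned libraries, with ranges that overlapped slightly. S100A6 alone made up 33.9% to 46.3% of these S100 counts in the fresh and 50.7% to 53.5% in the preconditioned group, so its share was higher in each preconditioned library than in any fresh one.

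The members were selected on a list of symbols drawn up with the preconditioned against fresh counts of these libraries already known, so their differences between the groups are given as a description, without p values. The log2 fold change of preconditioned over fresh (log2FC, given with its standard error, SE) was above 0 for 6 of the 8 genes and below 0 for 2, where 50.5% of all tested genes were above 0, and the median was 0.35, beside 0.01 over all tested genes. With library size alone that median was 0.19, and S100A14 lay on the other side of 0. S100A13 was the 1 gene past both cutoffs (0.05 for the edgeR adjusted p and 1 for the size of the log2FC), beside 1.08% of tested genes called higher and 1.2% called lower. Without the fold change cutoff S100A6 passed as well, beside 5.08% of tested genes. All 3 preconditioned libraries lay above all 3 fresh libraries for 3 of the 8 genes, beside 17.9% of tested genes, and for no member did they all lie below, beside 18.8%.

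**Figure D2:**
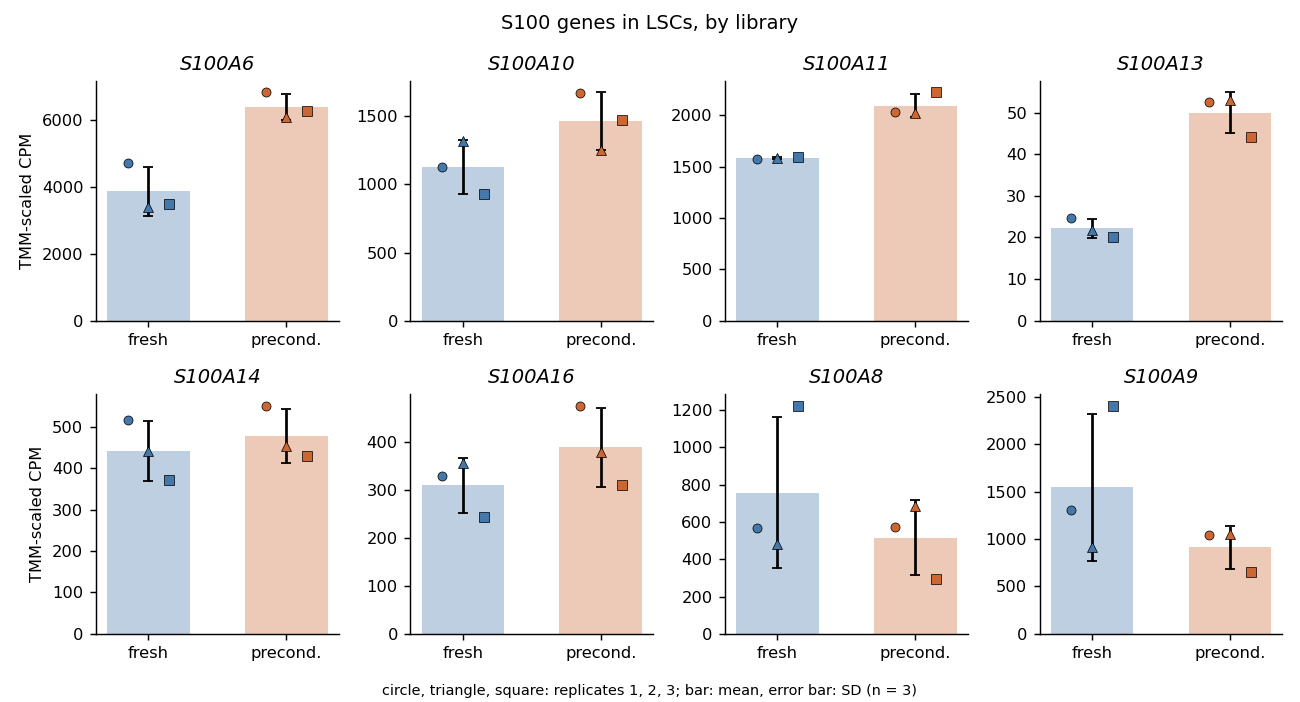
TMM-scaled CPM of each of the 8 S100 genes, with circles, triangles and squares for replicates 1, 2 and 3, bars at the mean and error bars for the SD (n = 3). The groups are apart for S100A6, S100A11 and S100A13, and fresh replicate 3 holds the highest value of S100A8 (1224 CPM) and S100A9 (2408 CPM).

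S100A6, which binds annexins and the calcyclin-binding protein, was 1.65-fold higher in the preconditioned group. It had 4698, 3401 and 3484 CPM in fresh replicates 1 to 3 and 6817, 6072 and 6250 CPM in preconditioned replicates 1 to 3, a log2FC of 0.72 (SE 0.16). The lowest preconditioned library thus lay above the highest fresh one. Leaving out 1 library at a time gave 0.64 to 0.89, under the fold change cutoff each time.

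S100A11, a partner of annexin A1 that is abundant in keratinocytes, had the narrowest spread of the family. Its CPM was 1572, 1586 and 1597 in the fresh libraries, and 0.413% of tested genes had a smaller SD of log2 CPM in that group. In the preconditioned libraries it was 2034, 2028 and 2223, all above the fresh libraries, with a log2FC of 0.40 (SE 0.11). Scaling by library size alone lowered this to 0.23.

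S100A10, also called p11, forms a complex with annexin A2 at the plasma membrane and does not bind calcium itself. It had 1128, 1321 and 930 CPM in the fresh and 1670, 1249 and 1473 CPM in the preconditioned libraries. The groups overlapped, since preconditioned replicate 2 lay below fresh replicate 2, and the log2FC was 0.38 (SE 0.17), or 0.25 without fresh replicate 3 and 0.26 without preconditioned replicate 1.

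S100A13 takes part in the release of IL-1α and FGF1, which leave the cell without a signal peptide. It was the lowest of the 8 genes and showed the largest ratio, with 24.7, 21.7 and 20.1 CPM in the fresh and 52.6, 53.0 and 44.2 CPM in the preconditioned libraries. The lowest preconditioned value was thus well above the highest fresh value, and the fold was 2.25 (log2FC 1.17, SE 0.14, with 1.10 to 1.25 without single libraries). It no longer passed both cutoffs without fresh replicate 1, 2 or 3 or preconditioned replicate 2, or in limma on log2(FPKM + 1), where its log2FC was 0.98, or on log2(FPKM + 0.1). Calls were few for all genes in those fits with 1 library left out, with 19, 14 and 47 genes called without fresh replicates 1, 2 and 3 and 16 without preconditioned replicate 2, in place of 344. In the gene order of the rabbit assembly mOryCun1.1 its span overlaps those of S100A1 and S100A3, and the counting's use of strand is not stated. Both neighbours had few counts, with 23 to 73 for S100A1 and 23 to 44 for S100A3, against 736 to 1727 for S100A13.

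S100A14 and S100A16 are epithelial members that follow S100A13, in this sequence, in that gene order. S100A14 had 515, 441 and 370 CPM in the fresh and 551, 453 and 429 CPM in the preconditioned libraries, so that the groups overlapped almost fully (log2FC 0.11, SE 0.16, −0.05 with library size alone and in limma on FPKM, and −0.01 without preconditioned replicate 1). S100A16 had 329, 355 and 244 CPM in the fresh and 476, 380 and 311 CPM in the preconditioned libraries. Preconditioned replicate 3 lay within the fresh range, and the log2FC was 0.33 (SE 0.20), with 0.15 to 0.47 without single libraries. The spans of both genes overlap that of S100A3 as well, and the span of S100A11 overlaps a long non-coding RNA gene.

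S100A8 and S100A9, which pair as calprotectin, went the other way on average. S100A8 had 568, 481 and 1224 CPM in the fresh and 573, 683 and 294 CPM in the preconditioned libraries, a log2FC of −0.55 (SE 0.44). S100A9 had 1311, 916 and 2408 CPM in the fresh and 1042, 1050 and 651 CPM in the preconditioned libraries, a log2FC of −0.76 (SE 0.37). For both genes the groups overlapped, with fresh replicate 3 as the highest and preconditioned replicate 3 as the lowest library. Without fresh replicate 3 the log2FC was −0.02 for S100A8 and −0.29 for S100A9, and without preconditioned replicate 3 it was −0.27 and −0.56.

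The high library was the same for the 3 calgranulin genes. In fresh replicate 3, S100A8 had a log2 ratio of 1.22 to the mean of the other fresh libraries and S100A9 one of 1.11. S100A12, the other calgranulin, is not on the list of members. It had 785, 599 and 1792 CPM in the fresh and 806, 931 and 656 CPM in the preconditioned libraries, and its log2 ratio in fresh replicate 3 was 1.37. A larger difference in log2 CPM than that of S100A8 was seen in this library for 3.69% of tested genes. In preconditioned replicate 3 the ratios were −1.10 for S100A8, −0.68 for S100A9 and −0.40 for S100A12, so that the 3 genes were low to unequal degrees. The FPKM ratio of S100A9 to S100A8 was 1.89 to 2.29 in the fresh and 1.52 to 2.20 in the preconditioned libraries, and S100A9 was the higher gene in each of the 6. The ratio of S100A12 to S100A8 was 1.21 to 1.42 in 5 libraries and 2.17 in preconditioned replicate 3. These 3 genes are neighbours in the order S100A8, S100A12, S100A9 and are similar in sequence, and whether reads were shared between them in the counting is not known.

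**Figure D3:**
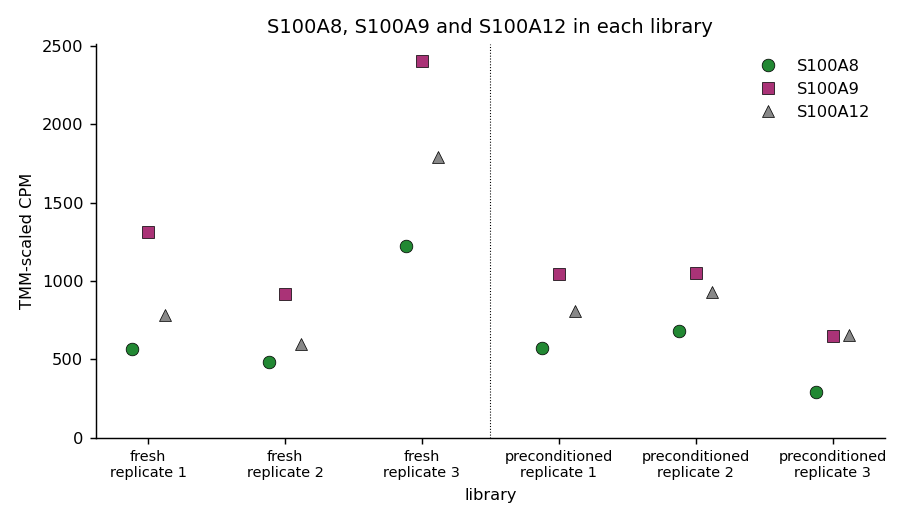
TMM-scaled CPM of S100A8, S100A9 and S100A12 in each of the 6 libraries. All 3 genes are highest in fresh replicate 3 (1224, 2408 and 1792 CPM), and S100A8 and S100A9 are lowest in preconditioned replicate 3 (294 and 651 CPM).

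S100A8 and S100A9 are also made by neutrophils and monocytes, and in bulk RNA fewer cells of a type and less RNA per cell cannot be told apart. Of 10 myeloid markers, MPO, ELANE and CSF3R had no row. The other 7 summed to 111 to 140 CPM in the fresh and to 127, 344 and 300 CPM in preconditioned replicates 1 to 3, and most of this was CD68, a lysosomal gene with 93.4 to 129 CPM in the fresh and 121 to 300 CPM in the preconditioned group. PTPRC, the pan-leukocyte antigen CD45, had 0.197 to 0.493 CPM in the fresh and 0.274 to 1.5 CPM in the preconditioned group. Within the fresh group, replicate 3, with the most S100A8 and S100A9, had the highest CD14 (7.82 CPM against 4.90 and 4.39), ITGB2 (4.79 against 3.65 and 2.70) and FCER1G (3.31 against 1.80 and 1.66). It had the lowest ITGAM (0.191 CPM) and CD68 of that group, and 0.328 CPM of PTPRC. CD14 was lowest of the 6 libraries in preconditioned replicate 3 (2.37 CPM), as were S100A8 and S100A9. In that library CD68 (288 CPM), ITGB2 (4.87 CPM) and ITGAM (1.09 CPM) lay above every fresh library. PTPRC, CSF1R and FCER1G were within the fresh range there. All 7 markers were highest in preconditioned replicate 2. The part of myeloid cells in the S100A8 and S100A9 values was not tested.

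Stromal fibroblasts also contain S100A6. The 8 fibroblast markers summed to 470, 711 and 1031 CPM in the fresh and to 777, 1621 and 787 CPM in the preconditioned libraries. Much of this was VIM, with 240 to 425 CPM in the fresh and 252 to 735 CPM in the preconditioned group. Single markers had log2FC values from −1.27 (KERA) to 1.11 (COL1A2), and the groups overlapped for each. Preconditioned replicate 2 had the highest fibroblast sum and the lowest S100A6 of its group, and the part of fibroblasts in the S100A6 difference was not tested. Among the other marker lists, the 2 T cell genes in the table had at most 3 counts in every library, as did TYR, PMEL and MLANA of the 5 melanocyte genes. The melanocyte list summed to 4.36 to 5.69 CPM in the fresh and 2.59 to 3.79 CPM in the preconditioned group. The Schwann cell list had at most 1.85 CPM, the endothelial list 1.03 to 13 CPM, and the goblet cell list, nearly all of it KRT7, 392 to 1209 CPM.

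The other S100 genes and the lists that follow were also drawn up with earlier results of these data known, so their p values, which were adjusted over all tested genes, are not independent evidence. Of 10 further S100 genes, 6 had a row and 4 were tested, and none passed the cutoffs, beside 2.29% of all tested genes called in either direction. S100A12 had a log2FC of −0.41 (SE 0.40, edgeR adjusted p = 0.52, with 0.31 to 0.75 over the alternatives), and without fresh replicate 3 it was 0.20. S100A1, S100A3 and S100A5 had between 0.0820 and 2.33 CPM in every library, with adjusted p values of 0.35, 0.86 and 0.72. S100B, a marker of Schwann cells and melanocytes, had 1 to 9 counts per library, and S100P had 2 counts in fresh replicate 2 and none elsewhere.

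Further rows carry an S100 description without an S100 symbol, and these 4 were chosen after their values had been seen. LOC103344972, described as protein S100-A4, lies between S100A16 and S100A5 in the gene order and was expressed at the level of the major members. It had 1697, 1973 and 1198 CPM in the fresh and 2734, 1858 and 1692 CPM in the preconditioned libraries. The groups overlapped, with a log2FC of 0.37 (SE 0.25, edgeR adjusted p = 0.34), or 0.12 without preconditioned replicate 1 and 0.19 without fresh replicate 3. LOC100350303, which carries the symbol S100Z in the reference table, had 133, 193 and 178 CPM in the fresh and 125, 80.9 and 112 CPM in the preconditioned libraries. All preconditioned values lay below all fresh values, but it did not pass the cutoffs (log2FC −0.67, SE 0.20, edgeR adjusted p = 0.084, with 0.033 to 0.23 over the alternatives). The rows described as S100-A15A and S100-A7 had 12 to 53 and 0 to 6 counts per library.

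In the same gene order, the 8 members lie on chromosome 7, each beside another S100 gene. S100A13, S100A14 and S100A16 follow S100A1, S100A6 follows S100A5, and S100A11 stands next to S100A10 and to TCHHL1, one of the fused S100 genes that join an S100 domain to a long repeat. Values of either sign occur within the run from S100A1 to S100A9, with a log2FC of 0.33 for S100A16 and −0.76 for S100A9.

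Fused S100 genes serve the cornified layer of skin and hair. FLG and FLG2, which encode filaggrins, had at most 2 counts in any library, and HRNR, RPTN and CRNN had no row. TCHH, trichohyalin, had 37.5, 36.1 and 28.3 CPM in the fresh and 59.0, 54.0 and 57.8 CPM in the preconditioned libraries. The groups were apart (log2FC 0.74, SE 0.14, edgeR adjusted p = 0.039), and the change stayed under the fold change cutoff. The adjusted p was above 0.05 in limma on FPKM (0.057 and 0.058), without any of the 3 fresh libraries and without preconditioned replicate 2 or 3, with 9.4e-04 to 0.14 over the alternatives. TCHHL1 had 3.74 to 6.86 CPM and an adjusted p of 0.31.

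Receptors for released S100 proteins were next. AGER, the gene of RAGE, had no row. TLR4 was low, with 2.64, 1.43 and 5.63 CPM in the fresh and 1.46, 2.33 and 0.691 CPM in the preconditioned libraries (log2FC −1.11, SE 0.62, edgeR adjusted p = 0.26). The groups overlapped, and the highest value again lay in fresh replicate 3, without which the log2FC was −0.45. None of the 7 receptor genes in the table passed the cutoffs, with log2FC values above 0 for 4 and below 0 for 3. The other receptors with values here were named after these were seen. TLR2, which like TLR4 signals in innate immunity, had 16.5, 35.4 and 22.3 CPM in the fresh and 19.3, 9.59 and 6.19 CPM in the preconditioned libraries, with overlap (log2FC −1.08, SE 0.46, edgeR adjusted p = 0.17), and was called without preconditioned replicate 1. BSG, which encodes basigin, a receptor of S100A9, was the most highly expressed of them by FPKM, and had a log2FC of 0.99 (SE 0.42, adjusted p = 0.16).

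Of the 37 genes tested in the lists outside the members, 2 were called, beside 2.29% of all tested genes, and since the lists were chosen with results known nothing is read from that share. Both stand on the list of 17 binding partners and genes that act with them, of which 15 were tested, 2 rose and 13 did not pass the cutoffs. ANXA1, annexin A1 and a partner of S100A11, rose from 9419, 7489 and 8745 CPM in the fresh libraries to 19754, 20502 and 17157 CPM in the preconditioned libraries (log2FC 1.16, SE 0.15, edgeR adjusted p = 0.021, with 2.7e-10 to 0.10 over the alternatives). PLAU, urokinase, which activates plasminogen held at the cell surface by S100A10 and other receptors, rose from 2362, 2260 and 2093 CPM to 4108, 6450 and 4786 CPM (log2FC 1.19, SE 0.18, edgeR adjusted p = 0.031, with 1.6e-06 to 0.13 over the alternatives). For both genes every preconditioned library lay above every fresh library. The calls were lost without any single fresh library or without preconditioned replicate 2, and for PLAU also without preconditioned replicate 3, fits that called 14 to 72 of all genes in place of 344. Neither gene passed the fold change cutoff in limma on FPKM, where the log2FC of both came to 1.0 only after rounding. The limma adjusted p was 0.031 and 0.026 for ANXA1 and 0.036 and 0.034 for PLAU. With library size alone ANXA1 had a log2FC of 0.99.

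ANXA2, the partner of S100A10, had 4560, 4063 and 3886 CPM in the fresh and 6038, 6887 and 5727 CPM in the preconditioned libraries. The groups were apart, with a log2FC of 0.58 (SE 0.13, edgeR adjusted p = 0.052). AHNAK, a giant scaffold protein bound by S100A10 with annexin A2, had a log2FC of 0.27 (SE 0.17, adjusted p = 0.32). CACYBP, the calcyclin-binding protein, had 110 to 123 CPM in the fresh and 88.3 to 127 CPM in the preconditioned group (log2FC −0.13, SE 0.15, adjusted p = 0.58). A row without a symbol, LOC100344315, has the same description, and its 188 to 329 counts against 2683 to 4260 for CACYBP may include reads shared between copies. IL1A, the cargo that S100A13 helps to release, had 711, 659 and 1005 CPM in the fresh and 1064, 1107 and 764 CPM in the preconditioned libraries. The groups overlapped (log2FC 0.31, SE 0.21, adjusted p = 0.36, with a log2FC of 0.19 to 0.51 without single libraries), while FGF1 and SYT1, the other parts of that release complex on the list, were too low to be tested.

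Genes that epithelia use as alarm signals were set beside the alarmins. Of 15 such genes, 10 had a row, 9 were tested and none passed the cutoffs, with log2FC values above 0 for 3 and below 0 for 6 and a median of −0.39. IL1B had 4.54 to 5.29 CPM in the fresh and 2.53, 15.1 and 5.63 CPM in the preconditioned libraries (log2FC 0.66, SE 0.59, adjusted p = 0.47), and without preconditioned replicate 2 the value was −0.26. KRT16 and KRT17, keratins of activated epithelium, had log2FC values of −0.81 (SE 0.50, adjusted p = 0.31) and −0.71 (SE 0.50, adjusted p = 0.37). Without preconditioned replicate 1 these were −1.44 and −1.16, and without preconditioned replicate 3 they were −0.41 and −0.37. The largest difference was that of IL36G, a cytokine of the IL-1 family, named after its values were seen. It had 44.8, 58.8 and 80.3 CPM in the fresh and 23.1, 6.81 and 2.60 CPM in the preconditioned libraries. The groups were apart, but with a log2FC of −2.50 (SE 0.74) its edgeR adjusted p was 0.083. The log2FC was −3.71 without preconditioned replicate 1 and −2.03 without preconditioned replicate 3. Over the alternatives the adjusted p was 0.011 to 0.24, and DESeq2, limma on FPKM and the fit without preconditioned replicate 1 called it. DESeq2 called 7.78% of the genes it tested, the limma fits called 283 and 590 genes, and the fit without preconditioned replicate 1 called 1546.

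**Figure D4:**
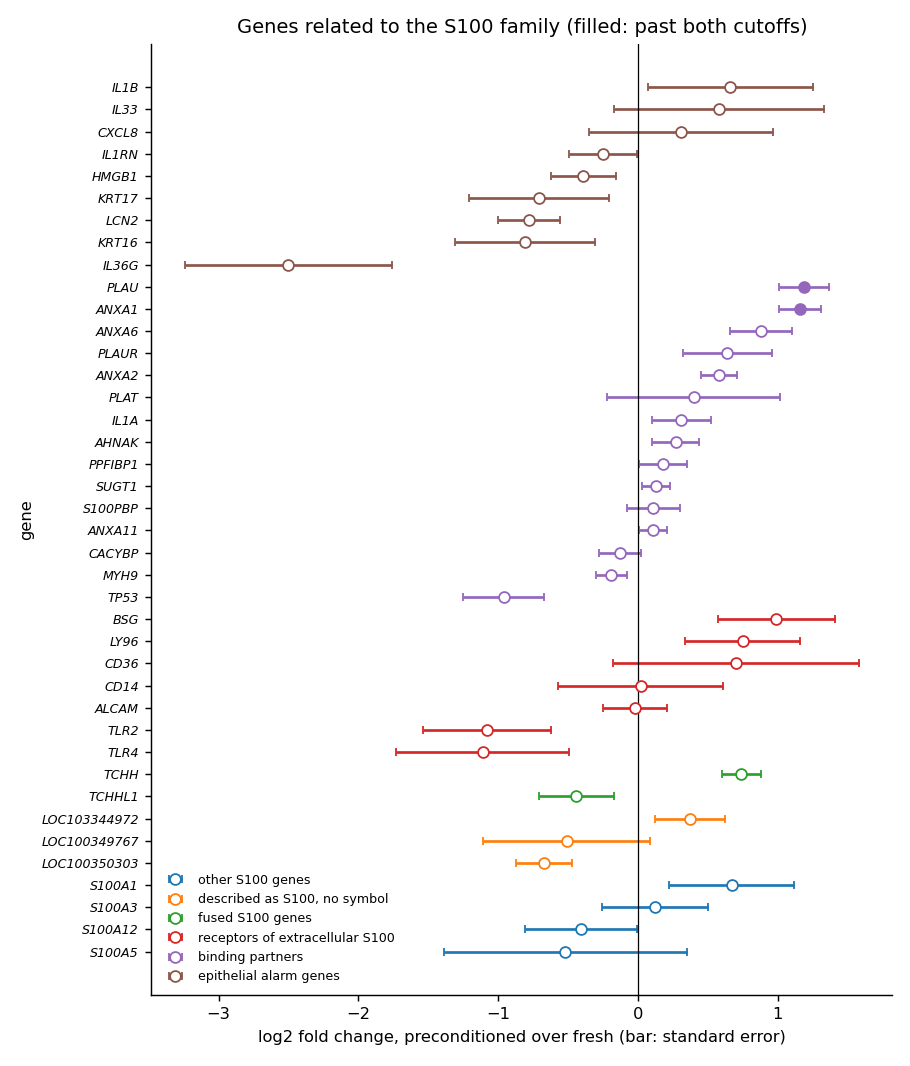
Log2 fold change, log2FC (preconditioned over fresh) of each tested gene related to the S100 family, with the SE as a bar and colours for the lists. Filled points mark ANXA1 (1.16) and PLAU (1.19), which passed both cutoffs, and IL36G lies farthest below 0 (−2.50).

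The genes most like S100A8, S100A9 and S100A6 were found from log2 CPM centred on its mean over the 6 libraries, as those with the smallest root mean square difference among tested genes with a symbol. For S100A8 they were RUNX1T1 (0.079), EMID1 (0.10) and CRISPLD2 (0.158), and S100A9 stood at place 5 (0.193) and S100A12 at place 23 (0.272). For S100A9 they were C1QTNF5 (0.128), CPT1A (0.150) and RUNX1T1 (0.165). CRISPLD2 had 50.5, 57.8 and 121 CPM in the fresh and 62.1, 61.0 and 27.3 CPM in the preconditioned libraries, with the same high and low library as S100A8. RUNX1T1 and EMID1 had at most 1.04 CPM in any library. For S100A6 they were TIFA (0.056), GPATCH2 (0.075) and MCEE (0.081), and the nearest S100 genes, S100A11 and S100A13, stood at places 623 and 688.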

How the data were processed

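RNA-seq was analysed in LSCs of 3 fresh and 3 preconditioned libraries, grouped by the sample titles. The authors aligned reads with hisat2 and counted them per gene with htseq-count. The deposited counts are not normalized. The authors also deposited FPKM, which came to counts over library total and gene length. How that length was defined, the genome build and the strand setting are not given in the sources used here. Genes were filtered with filterByExpr, scaled by TMM and tested with edgeR 4.0.16 (quasi-likelihood, R 4.3.3) with condition as the only factor. Benjamini-Hochberg adjustment covered all 15029 tested genes. A call needed both of the study's cutoffs, 0.05 for adjusted p and 1 for the size of the log2 fold change. The study applied these cutoffs with DESeq2, which was an alternative here and called 1190 genes, against 344 in edgeR. Standard errors were derived from the F statistic. Of 22177 gene identifiers, 19462 were found in a RefSeq table of mOryCun1.1, used only for names and gene order.

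The members and lists were chosen with earlier results of these data known. The genes named are the members, other S100 genes, called genes of the related lists and 10 fixed genes, of which AGER had no row. BSG, TLR2, IL36G, TCHH, TCHHL1, FLG, FLG2, FGF1, SYT1 and the rows without a symbol were added after their values were seen. Alternatives were DESeq2 1.42.0, its size factors, library size alone, other filters, limma 3.58.1 on log2(FPKM + 1) and log2(FPKM + 0.1), a replicate block, no fold change cutoff and leaving out each library. The edgeR, DESeq2 and limma fits were also run on counts simulated with edgeR's dispersions, with limma on CPM there rather than FPKM. The replicate block and the fits without single libraries were not simulated, and no value above comes from these runs. No protein or promoter sequences were used here.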

Additional observations from a re-analysis of the deposited data

How the results depend on the processing

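Each group had 3 libraries, and whether the spread between libraries or depth limits these values more was not tested. Some S100 genes also had few counts. The number of members past both cutoffs was 1, and it was 0 in limma on log2(FPKM + 1) and on log2(FPKM + 0.1) and with the replicate block, 2 (S100A6 and S100A13) with no fold change cutoff, and 0 to 1 when each library was left out. The number of related genes outside the members was 2, ANXA1 and PLAU. It was 3 in DESeq2, with IL36G added, and 3 with no fold change cutoff, with TCHH added. Library size alone left 1 (PLAU). Each limma fit called 1, IL36G, which the main fit did not call. The number was 0 with the replicate block and 0 to 6 without each library. It reached 6 without preconditioned replicate 1, where 1546 of all genes were called in place of 344, and was 0 without fresh replicate 1, 2 or 3 or preconditioned replicate 2, where 14 to 47 were. The median log2 fold change of the members was 0.35. It was 0.19 with library size alone and 0.18 in both limma fits, whose values are not TMM-scaled, and 0.20 to 0.42 without each library. The direction turned for S100A3 (0.12), with −0.06 with library size alone, −0.04 and −0.08 in limma on log2(FPKM + 1) and log2(FPKM + 0.1), and −0.10 (without preconditioned replicate 2) to 0.33 without single libraries. For S100A14 (0.11) it was −0.05 with library size alone and in both limma fits, and −0.01 to 0.23 without single libraries. The median of all tested genes was itself −0.16 with library size alone and −0.09 and −0.15 in the limma fits, and S100A14 and S100A3 lay close to 0. The direction also turned without single libraries for S100A5 (−1.18 to 0.24, the latter without fresh replicate 2), S100A12 (−0.70 to 0.20, the latter without fresh replicate 3) and IL1B (−0.26 to 1.07, the former without preconditioned replicate 2). Same-numbered libraries did not deviate together (correlations of −0.067, −0.073 and −0.11 across genes), so the replicate block was kept as an alternative. Under the block 30 genes (0.2%) were called in place of 344. The edgeR adjusted p with the block was 0.077 for ANXA1, 0.080 for PLAU and 0.094 for TCHH. Their log2 fold changes were 1.16, 1.17 and 0.75. The causes of these differences between settings were not tested.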
